A study of Mus musculus with 4 samples.

Results

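Mesothelium in the E14.5 mouse lung libraries was represented by 86 of the 43351 cells in the data. It was taken as every cell of the 2 E14.5 libraries that had at least 800 detected genes and at least 2 of Upk3b, Wt1, Msln, Lrrn4 and Upk1b with 1 or more UMIs each. The UMIs of these 5 genes had to add up to 3 or more, and the cell could hold no UMI of Nkx2-1 or Cdh5, which mark lung epithelium and endothelium. A UMI is a counted RNA molecule. All fetuses were labelled Cyp27a1-/-, and the 2 groups compared here differed in the mother, labelled Cyp27a1+/- (the heterozygous mother, 66 cells) or Cyp27a1-/- (the null mother, 20 cells). The design asks how the genotype of the mother relates to the cells of a fetus without CYP27A1, the mitochondrial enzyme that oxidises the side chain of cholesterol and of bile acid intermediates. Each group was 1 library of digested lung, and the labels do not give the number of fetuses or litters in it. The other 2 libraries are labelled as E18.5 lung of the same pair of maternal genotypes, but their cells lacked the lung epithelium genes Nkx2-1 and Sftpc (0.0369 CPM or less outside the cells that met the rule) and held the liver gene Alb at 3238 and 8753 CPM, so the label is not borne out. They enter no comparison here, and 1 of them, that of the heterozygous mother, bears a WT tag in its title that its genotype label does not.

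Mesothelium is the sheet of flat cells that covers the lungs, the heart and the wall of the body cavity. It is an epithelium of mesodermal origin, with keratins and a glycocalyx of mucins, that keeps mesenchymal genes such as Vim. In the fetal lung it is known as a source of FGF9 and retinoic acid for the mesenchyme beneath it, and as a source of cells that leave the surface and enter that mesenchyme.

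With 1 library per mother there was no replicate and no test between mothers, and every interval below is an exact 95% interval that covers counting error only. The E14.5 libraries held 4957 and 4843 cells with 47005276 and 53293964 UMIs, and 94 cell barcodes occurred in both. Of the mesothelial cells, 5 of the heterozygous and 1 of the null mother had a barcode that occurred in another library. Levels are CPM, a gene's UMIs summed over cells relative to all UMIs of those cells, on the usual scale of expression data. These sums came to 1371059 UMIs in the 66 cells and 355367 UMIs in the 20 cells. The median mesothelial cell held 19383.5 UMIs with the heterozygous mother (1985 to 69181) and 18107.5 with the null mother (3354 to 33761). The targeted gene, Cyp27a1 (chr1:74713574-74737892, GRCm38), was counted at 32.8 CPM (45 UMIs) and 28.1 CPM (10 UMIs), a ratio of 0.857 (0.385 to 1.73). Both groups of fetuses carry the same genotype, and tags at the end of a transcript do not show whether a deleted part is missing, so these counts do not check the labels.

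The name of mesothelium, though not its organ, was borne out by genes that the rule did not use. Aldh1a2 (chr9:71215789-71296243), the enzyme that makes retinoic acid in mesodermal tissue, was found in 66 of 66 and 19 of 20 cells, at 875 CPM and 1134 CPM. In the lung fibroblasts of the same libraries (1511 and 1382 cells, chosen by Tcf21, Wnt2, Tbx4, Col13a1 and Mfap4) it stood at 2.00 and 1.04 CPM, and in the lung epithelium (343 and 474 cells with Nkx2-1 and Epcam) at 1.10 and 0.183 CPM. With every cell thinned to 2000 UMIs, Aldh1a2 was found in 76.9% and 70% of mesothelial cells against 0.548% and 0.224% of fibroblasts. The median depths were 15051 and 15034.5 UMIs in fibroblasts and 22453 and 23094 UMIs in epithelium, so depth was of the same order in the 3 kinds of cell.

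The rule genes themselves describe how the cells were found and carry no test. Upk3b (chr5:136038496-136046487), a uroplakin of the apical membrane, was present in 66 of 66 and 19 of 20 cells. Wt1 (chr2:105126529-105173616), the transcription factor of coelomic epithelia, was present in 63 and 19 cells. Upk1b was found in 60 and 18 cells and Lrrn4 in 52 and 17. Msln, the surface glycoprotein mesothelin, was the exception, with UMIs in 8 and 6 cells only. The cells did not sit at the edge of the rule, since the median sum of the 5 genes was 38 and 39 UMIs and 49 and 15 cells held 4 or 5 of the genes. Just inside it, 4 cells had a sum of 3 or 4 and showed Aldh1a2 at 758 CPM (10 UMIs) and no Tcf21. Just outside it, 7 cells had UMIs of 2 rule genes with a sum of 2. They showed Aldh1a2 at 178 CPM (9 UMIs) and Tcf21, a fibroblast gene, at 158 CPM (8 UMIs). Krt19 was at 303 CPM inside and 79.0 CPM outside, from 4 UMIs each, and Col13a1 had 0 and 5 UMIs. Gpm6a had 1 UMI inside and 0 outside, too few to show a difference. Rspo1, at 512 CPM in members with a sum of 5 or more, did not follow. It was at 152 CPM (2 UMIs) just inside and 197 CPM (10 UMIs) just outside. The 4 cells had a median of 2200.5 UMIs, so their lack of Tcf21 is weak evidence.

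Of 3216 genes measured (a mean of at least 50 CPM over the 2 libraries), 168 (5.22%) were at least 4-fold above all other E14.5 cells in both libraries. This describes the cells, because they were picked by expression. By the lower of the 2 ratios the leading genes outside the rule were Muc16, the mucin known as CA125, at 40.1 and 87.2 CPM against 0.0464 and 0.0402 CPM in the other cells, then Tm4sf5, Aldh1a2, Cldn15, Gpm6a and Pnoc. Gpm6a, a membrane glycoprotein, stood at 204 and 273 CPM, and Cldn15, a claudin of leaky tight junctions, at 113 and 121 CPM. Igfbp6, Pappa2, Ngb (neuroglobin), Zbtb7c, Fgf9, Tdo2, Plscr2, Cpz and Il18 completed the first 20 with the 5 rule genes. Muc16 was found in 39.4% and 70% of cells as counted and in 9.23% and 5% of cells thinned to 2000 UMIs, against 0% and 0.0747% of thinned fibroblasts. The order of the libraries for Muc16 thus turned with depth, and no difference in its share of cells was shown.

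**Figure D1:**
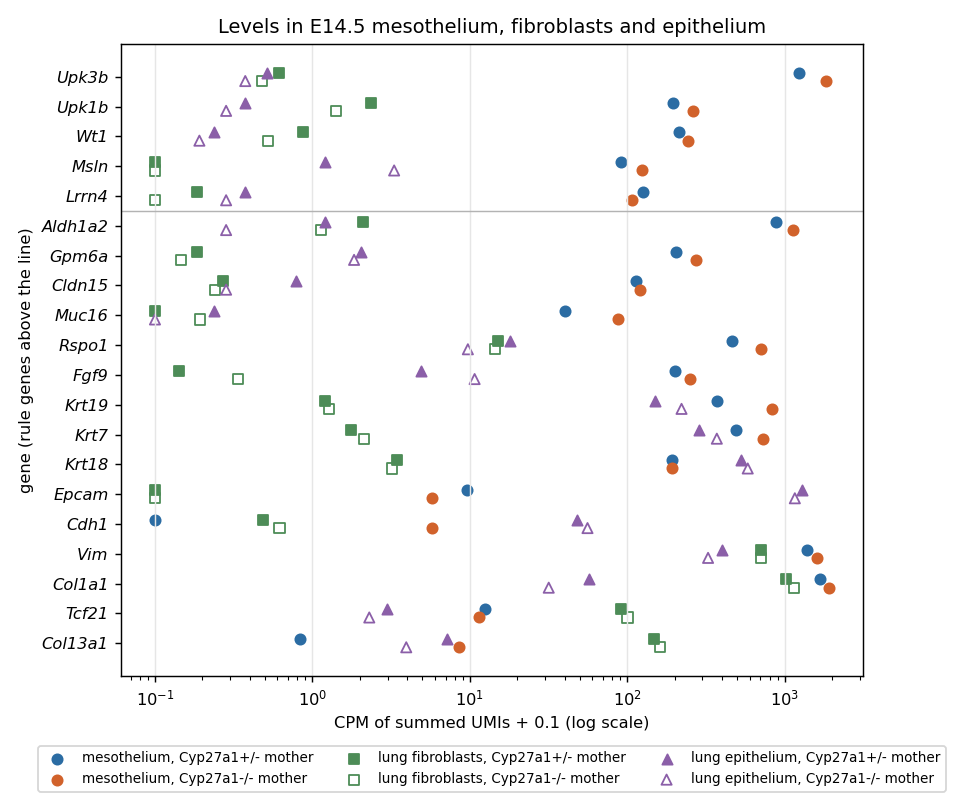
CPM of summed UMIs plus 0.1, on a log axis, of 20 genes in E14.5 mesothelium (circles), lung fibroblasts (squares) and lung epithelium (triangles) of each library; the 5 rule genes are above the line. Mesothelium lies to the right of both other cell types for Aldh1a2 (875 and 1134 CPM), Gpm6a, Cldn15, Muc16, Rspo1 and Fgf9, shares keratins with epithelium and collagen with fibroblasts, and has almost no Epcam, Cdh1 or Col13a1.

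The cells joined keratins of an epithelium to the matrix of a mesenchyme. Krt19 stood at 369 and 833 CPM and Krt7 at 489 and 729 CPM, both above the lung epithelium of the same library (151 and 221 CPM, and 285 and 370 CPM), and fibroblasts held 2.02 CPM or less of either. The junction genes of lung epithelium were nearly absent: Epcam had 13 and 2 UMIs, Cdh1 had 0 and 2, and Cldn4, Cldn6 and Ocln had none in either library. A count of 0 does not show absence, and in ratios it was replaced by 3 UMIs, the floor used here. Vim, the intermediate filament of mesenchyme, reached 1376 and 1593 CPM against 701 and 704 CPM in fibroblasts. Col1a1 reached 1669 and 1908 CPM against 1015 and 1140 CPM, and Fbln2, a fibulin of basement membranes and elastic fibres, 451 and 509 CPM against 10.9 and 7.34 CPM. Sparc, a collagen-binding matrix protein, stood at 4460 and 5186 CPM against 977 and 1140 CPM in fibroblasts. Ezr, which links membranes to actin in microvilli, was at 468 and 495 CPM, and Podxl, a sialomucin of free cell surfaces, at 185 and 191 CPM, both at least 4-fold above the other cells.

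Signals that mesothelium sends to its neighbours came next. Of the 16 retinoid genes 5 were measured. Beside Aldh1a2, Rdh10, which oxidises retinol in the step before it, stood at 244 and 166 CPM against 11.8 and 10.0 CPM in fibroblasts. The retinoic acid degrading enzymes Cyp26a1 and Cyp26b1 had 0 and 1 UMI with the heterozygous mother and none with the null mother. Fgf9 (chr14:58070547-58112720), the pleural signal for lung mesenchyme, was at 200 and 250 CPM against 0.0426 and 0.235 CPM in fibroblasts, where it was almost missing. Fgf18 was at 81.7 and 110 CPM, and the receptors Fgfr1 to Fgfr4 had 23 UMIs or fewer each in either library. Among 25 listed Wnt genes 8 were measured, led by modulators: Rspo1, a secreted enhancer of Wnt signalling, at 459 and 704 CPM, and Sfrp2, a secreted Wnt binding protein, at 630 and 771 CPM. The Wnt ligands in the list had 55 UMIs or fewer each. Of 12 hedgehog genes 4 were measured. No UMI of the ligands Shh and Ihh was counted in these cells, while Hhip, the membrane antagonist that binds hedgehog, stood at 290 and 301 CPM and the coreceptor Gas1 at 354 and 355 CPM, against 40.6 to 80.6 CPM for the pair in fibroblasts. Of 20 TGF beta and BMP genes 6 were measured, with Tgfb3 at 139 and 197 CPM against 7.71 and 10.3 CPM in fibroblasts.

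Imprinted growth regulators were counted at high levels, with 11 of 12 listed genes measured. Cdkn1c, the cell cycle inhibitor, stood at 3980 and 3698 CPM against 840 and 743 CPM in fibroblasts. Igf2 was at 103 and 113 CPM against 18.9 and 14.7 CPM, and Peg3 at 1083 and 1013 CPM against 267 and 199 CPM. Thinned to 2000 UMIs, 12 of 65 and 2 of 20 cells held a UMI of Mki67, a gene of dividing cells, against 30.4% and 28.5% of fibroblasts (40.9% and 20% against 58.8% and 54.9% as counted), so the share was not above that of the neighbouring cells. The Mki67 level was 114 and 107 CPM, below the 275 and 278 CPM of fibroblasts.

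Markers of lung epithelium, endothelium, immune and erythroid cells were below their level in the other cells, and those of fibroblasts were not. The summed level of 10 lung epithelium genes was 24.8 and 47.8 CPM against 758 and 2169 CPM in all other cells, with Nkx2-1 (by rule), Sox2, Cldn6 and Foxa2 at 0. The 9 immune genes summed to 11.7 and 8.44 CPM, with Ptprc, Lyz2, Fcer1g, Cd52 and Laptm5 at 0, and the 9 endothelial genes to 87.5 and 87.2 CPM, with Cdh5 (by rule) and Cldn5 at 0. Erythroid genes summed to 190 and 349 CPM, while in the other cells they summed to 1067 and 1901 CPM, so both were higher in the library of the null mother. The 12 lung fibroblast genes, which include collagens, summed to 4207 and 4412 CPM against 2632 and 2592 CPM in the other cells. The 9 heart muscle genes summed to 586 and 442 CPM against 682 and 250 CPM in the other cells, lower than there with the heterozygous mother and higher with the null mother, with Nkx2-5 at 0.

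The heart muscle sum came mostly from Myl7, with 666 of 804 and 119 of 157 UMIs of the 9 genes. Myl7, the atrial myosin light chain, stood at 486 and 335 CPM and was found in 46 of 66 and 13 of 20 cells. Its partners in atrial muscle were scarce in the summed UMIs: Myl4 had 10 and 9 UMIs, Nppa 3 and 1, and Myh6 1 and 1. A cell of the null mother with a Msln UMI and 3354 UMIs in all held the 9 genes at 8348 CPM, the highest there. Of this, 2982 CPM was Myl7 and 894 CPM Tnnt2, and the remainder came from other genes of the 9. Scarcity was thus not shown in that cell, which held no UMI of Upk3b, Aldh1a2 or Krt19. Whether it is mesothelium was not tested. In the other, non-mesothelial cells of the 2 libraries the proportions were different. They held 5091 and 523 UMIs of Myl7 beside 4144 and 1020 UMIs of Myl4 and 1667 and 207 UMIs of Myh6. The level of Myl7 in those other cells was 118 and 10.5 CPM, below that of the mesothelial cells in both libraries.

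Cells with a Msln UMI differed on average from the rest, though Msln did not mark the difference cell by cell. This split was chosen after the values had been seen, so it is a description with no test. It held 8 of 66 cells (12.1%, 5.38 to 22.5) and 6 of 20 cells (30%, 11.9 to 54.3), and the intervals of the shares overlap. Thinned to 2000 UMIs the shares were 6.15% and 10%, against 0% of thinned fibroblasts in both libraries and 0% and 1.51% of thinned epithelial cells. Upk3b and Wt1 were alike in cells with and without Msln: 1542 against 1309 CPM and 231 against 215 CPM over both libraries. The median depth was 21027.5 UMIs in the 14 cells with Msln and 19086.5 UMIs in the other 72.

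Cells with Msln were higher in Hand2 and Tbx18, transcription factors known from the epicardium, the mesothelium of the heart. They were lower in positional genes known from the lung. Whether these genes tell the mesothelium of the lung from that of the heart was not tested. Hand2, a heart and limb field factor, was at 140 CPM with Msln and 1.72 CPM without in the library of the heterozygous mother, and at 106 and 0 CPM in that of the null mother. With the null mother it came from cells at 188 and 464 CPM, and the other Msln cells held none. Tbx18, a factor of the epicardium, was at 251 against 49.8 CPM and at 134 against 51.7 CPM. The 9 listed epicardium genes summed to 854 against 394 CPM with the heterozygous mother and to 519 against 374 CPM with the null mother. Hoxa5 (chr6:52201754-52204587), which is needed for lung and diaphragm development, went the other way, at 0 against 168 CPM and at 38.4 against 143 CPM. No Msln cell of the heterozygous mother held a UMI of Hoxa5, whereas 47 of the other 58 did. Foxf1, the hedgehog-responsive factor of lung mesenchyme, was at 0 against 137 CPM and at 67.2 against 131 CPM, and Hhip at 0 against 342 CPM and at 202 against 342 CPM. Ngb, Osr1, Col14a1, Meis1, Enpp2, Sfrp2, Fgf9 and Rdh10 were also lower in Msln cells of both libraries. Of 18 anterior Hox and lung Tbx genes the summed level was 218 CPM with Msln and 681 CPM without.

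Muscle and matrix genes were higher in the same cells. Tnnt2, cardiac troponin T, was at 434 against 18.9 CPM and at 106 against 7.96 CPM. Myl7 was at 1834 against 246 CPM and at 759 against 159 CPM. In the Msln cells of the null mother Myl7 ran from 0 to 2982 CPM, and the cell at 1488 CPM held Hhip and no Tbx18. Tnni1 and Fabp3 were also higher with Msln, at 545 against 44.7 CPM and 434 against 10.3 CPM with the heterozygous mother. With the null mother they were at 307 against 19.9 CPM and 240 against 27.9 CPM. Dcn (chr10:97479609-97518143), the small proteoglycan decorin, was at 2905 against 340 CPM and at 1104 against 271 CPM. Fn1, fibronectin, was at 622 against 93.7 CPM and at 259 against 87.6 CPM. The summed lung fibroblast genes, which include Dcn and collagens, were at 9570 CPM with Msln and 3078 CPM without, and the summed heart muscle genes at 1869 and 268 CPM. The heart genes Nkx2-5 and Myh7 stayed at 0 or 1 UMI over all 86 cells.

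**Figure D2:**
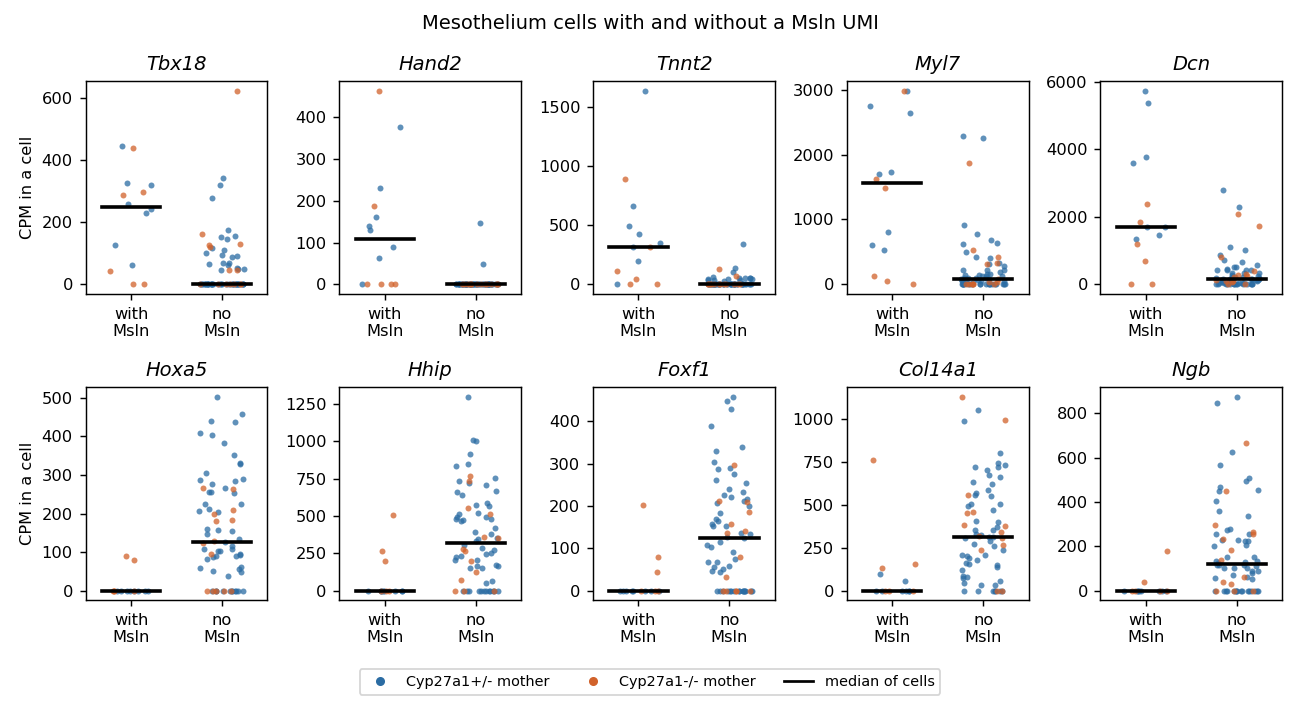
CPM per cell of 10 genes in the 86 mesothelial cells, split by whether the cell held a Msln UMI; blue points are cells of the heterozygous mother, orange points cells of the null mother, and bars are medians over cells. Tbx18, Hand2, Tnnt2, Myl7 and Dcn are higher in the 14 cells with Msln, and Hoxa5, Hhip, Foxf1, Col14a1 and Ngb have a median of 0 there.

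The 6 Msln cells of the null mother were not of one kind. In 3 of them Hhip was at 0, Krt19 was between 0 and 464 CPM, and Tbx18 was between 290 and 439 CPM. Of these 3, the cell with 3354 UMIs held no UMI of Upk3b, Aldh1a2 or Krt19 and had Myl7 at 2982 CPM. The other 3 Msln cells of the null mother held Hhip at 196 to 507 CPM, Krt19 at 1115 to 2272 CPM, and Tbx18 at 0 to 44.8 CPM. The 8 Msln cells of the heterozygous mother all had Hhip at 0 and Tbx18 at 63.0 CPM or more. Conversely, 4 cells without a Msln UMI, 2 in each library, had no UMI of Hoxa5, Hhip or Foxf1 and held Tbx18 at 132 to 625 CPM, Myl7 at 529 to 2281 CPM and Dcn at 1718 to 2808 CPM. These 4 cells were picked out after their values were seen. Another cell of the heterozygous mother, with 1985 UMIs, lacked Msln, Hoxa5, Hhip and Foxf1 too, but held no UMI of Tbx18, Myl7 or Dcn. Another cell of the null mother, with 6196 UMIs, lacked the same genes and Myl7, with Tbx18 at 161 CPM and Dcn at 807 CPM. Whether the cells came from the lung or from a neighbouring surface was not tested.

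Fewer mesothelial cells were counted with the null mother. They made up 2.01% (1.56 to 2.55) of the 3284 cells with at least 800 genes in the library of the heterozygous mother, and 0.613% (0.375 to 0.945) of 3264 cells in that of the null mother. The ratio of the shares was 0.305 (0.175 to 0.509). Applied to cells thinned to 2000 UMIs, the rule found 1.25% and 0.443%, a ratio of 0.355 (0.173 to 0.686). With 18 and 4 cells left after removal of every cell that had 3 or more UMIs of the immune, endothelial, heart muscle or lung epithelium genes, the ratio was 0.224 (0.0550 to 0.679); 43 and 11 cells were left when the heart muscle genes were not counted. A mother's genotype and a preparation cannot be told apart with 1 library each.

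The expression of mesothelial cells was alike for most genes. Of 3216 measured genes, 64 (1.99%) had a level at least 2-fold higher with the null mother and 47 (1.46%) a level 2-fold or more lower, and the median log2 ratio of all measured genes was -0.03. These counts rest on 20 cells, where 1 cell can carry much of a gene: the cell with the highest Igfbp6 held 36.2% of the Igfbp6 UMIs, 33.0% of those of Crip1 and 40.5% of those of S100a6. It also held a Msln UMI. Without it 47 genes were past 2-fold higher and 44 lower. Without all cells with a Msln UMI (58 and 14 cells left) 75 and 60 were, and of the 12 genes with the highest ratio 6 remained past 2-fold, while of the 12 with the lowest ratio 10 did. Both removals were chosen after the data had been seen. The Msln cells removed were unlike in the 2 libraries, since only with the null mother did some of them hold Hhip. There, Msln cells with Hhip held Crip1 at 582 to 3643 CPM, and those without it at 62.8 to 348 CPM. In the same order Hspb1 was at 2078 to 5239 CPM and 174 to 298 CPM, while S100a6 overlapped, at 806 to 3408 CPM and 62.8 to 1856 CPM. Among the Msln cells removed with the null mother, those with Hhip thus held the higher Crip1 and Hspb1. The 2 kinds of Msln cell were not removed separately, so their part in the change of ratios was not tested. In cells thinned to 2000 UMIs 10 of the 12 highest and 7 of the 12 lowest were past 2-fold, and 10 and 4 were when cells with 3 or more UMIs of the immune, endothelial, heart muscle or lung epithelium genes were left out.

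**Figure D3:**
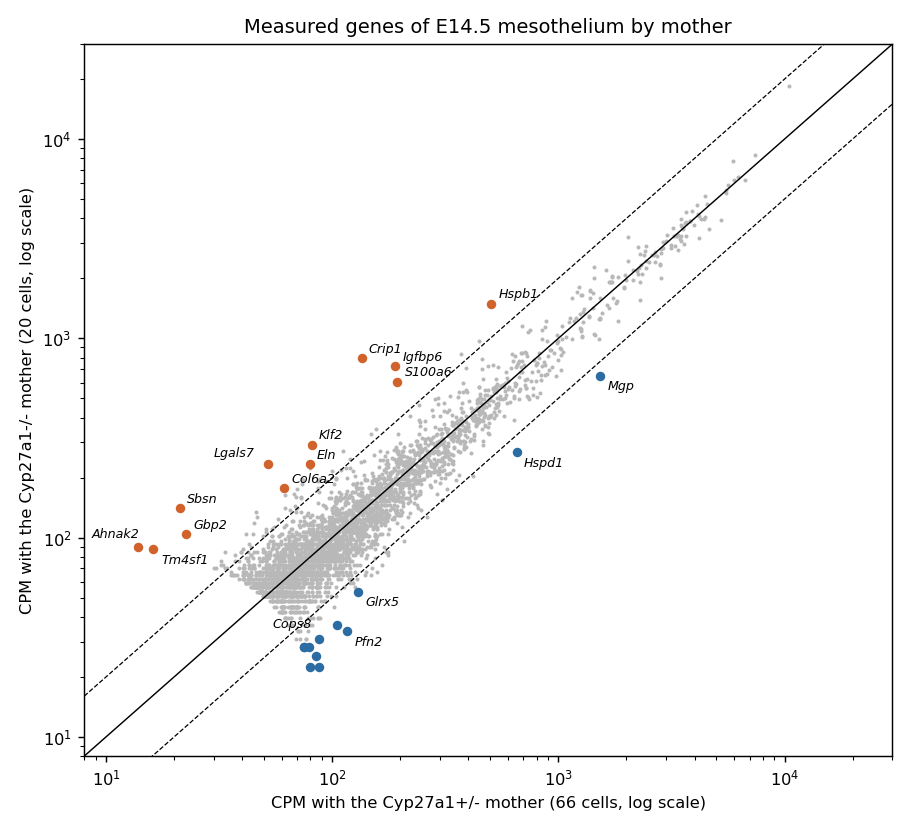
CPM of the 3216 measured genes in mesothelial cells of the null mother against the heterozygous mother, both on log axes; the solid line marks equal levels and the dashed lines 2-fold. Orange points are the 12 genes with the highest log2 ratio and blue points the 12 with the lowest, 7 of them without a name because they crowd together; Hspb1, Crip1, Igfbp6, S100a6, Mgp and Hspd1 stand out at high levels.

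Crip1 (chr12:113146316-113153879), a small LIM-domain protein, had the highest log2 ratio of CPM plus 10, the measure used for the ranking, at 2.47. Its level per cell ran from 0 over a median of 95.9 to 1054 CPM with the heterozygous mother, and from 0 over 505 to 3643 CPM with the null mother. The ranges overlap, and the summed levels were 135 and 794 CPM, a ratio of 5.88 (4.87 to 7.12). In fibroblasts of the same libraries the ratio was 1.94, and in all other cells 2.22. Thinned to 2000 UMIs, 16.9% (8.76 to 28.3) and 55% (31.5 to 76.9) of cells held Crip1, against 3.22% and 4.93% of fibroblasts. The ratio was 4.25 without the cell highest in Igfbp6 and 3.93 without the cells with Msln.

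Igfbp6 (chr15:102144362-102149511), a binding protein with preference for IGF2, was nearly restricted to mesothelium, at 1.15 CPM or less in fibroblasts. Its level per cell ran from 0 over a median of 109 to 2156 CPM with the heterozygous mother, and from 0 over 310 to 3643 CPM with the null mother. The ranges overlap again, and the summed levels were 190 and 723 CPM, a ratio of 3.81 (3.20 to 4.55). Thinned, 26.2% (16.0 to 38.5) and 60% (36.1 to 80.9) of cells held it, against 0.342% and 0.149% of fibroblasts. Without the cells with Msln the ratio was 2.09. Igfbp6 was lower in Msln cells than in the others with the heterozygous mother (67.5 against 211 CPM). It was higher in them with the null mother (1402 against 442 CPM), and this difference was not tested. The higher level lay in the null mother's Msln cells with Hhip, at 851 to 3643 CPM. Her Msln cells without Hhip held Igfbp6 at 0 to 298 CPM.

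Hspb1, the small heat shock protein that binds actin, had medians per cell of 478 and 957 CPM. Its summed levels of 503 and 1491 CPM gave a ratio of 2.96 (2.64 to 3.32). Its ratio was 1.58 in fibroblasts, 2.52 in epithelium and 1.05 in all other cells, and 1.87 in mesothelium without the cells with Msln. S100a6, a calcium-binding protein, stood at 194 and 605 CPM, which gives a ratio of 3.12 (2.59 to 3.75), and at 1.45 without the cells with Msln. Klf2, a factor known for its response to flow, was at 81.0 and 293 CPM with a median per cell of 0 in both libraries and UMIs in 24 and 8 cells. Its ratio was 3.61 (2.74 to 4.77), and 1.70 without the cells with Msln. Eln, elastin, was at 79.5 and 234 CPM with medians per cell of 53.0 and 194 CPM, a ratio of 2.94 (2.18 to 3.94). Eln was also higher in fibroblasts, by a ratio of 2.15, and its ratio in mesothelium was 2.71 without the cells with Msln but 1.62 in thinned cells. Col6a2, a chain of collagen VI, had a ratio of 2.89 (2.05 to 4.06), and 2.21 without the cells with Msln.

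The other genes among the 12 with the highest ratio had low counts. Gbp2, an interferon-induced GTPase, had 31 and 37 UMIs and Sbsn, suprabasin, 29 and 50 UMIs, with ratios of 4.61 and 6.65 that stayed past 2-fold without the cells with Msln (3.81 and 2.78), though that of Gbp2 was 1.62 in thinned cells. Lgals7, Ahnak2 and Tm4sf1 did not: their ratios of 4.51, 6.50 and 5.44 became 1.25, 1.68 and 0.842. One cell held 48.2% of the Lgals7 UMIs of the null mother.

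**Figure D4:**
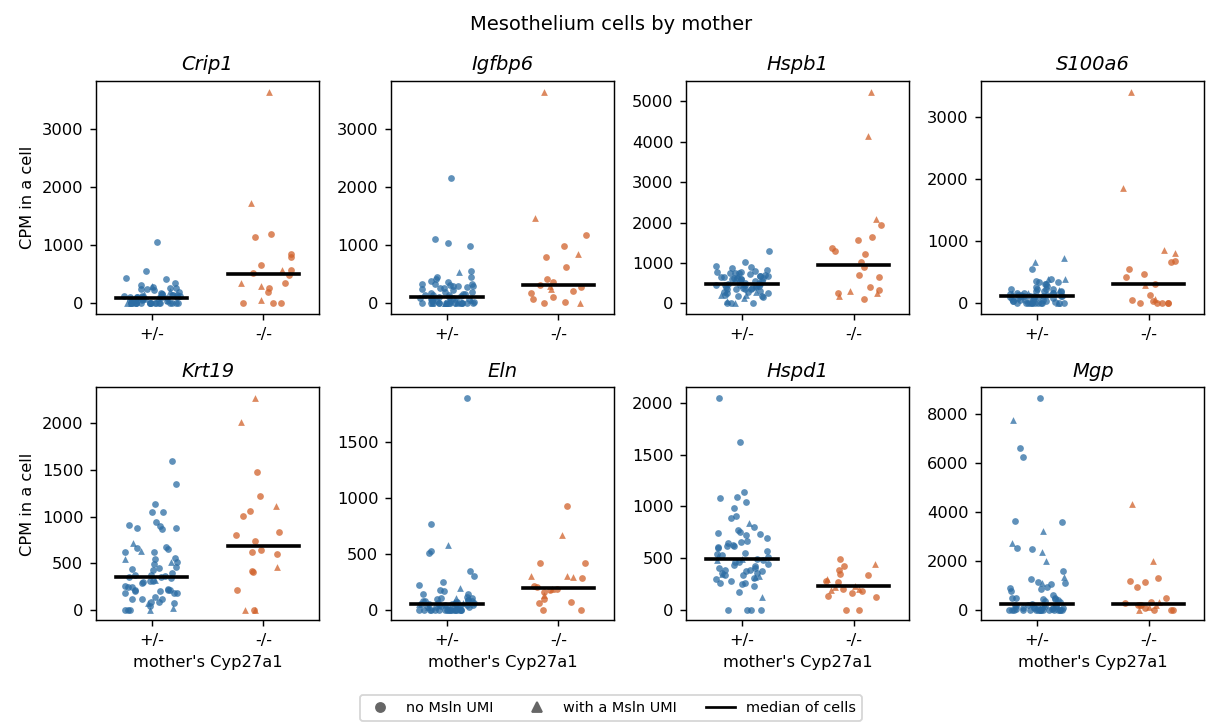
CPM per cell of 8 genes in the 66 mesothelial cells of the heterozygous mother (blue) and the 20 of the null mother (orange); triangles are cells with a Msln UMI and bars are medians. The medians of Crip1, Igfbp6, Hspb1, S100a6, Krt19 and Eln are higher with the null mother and that of Hspd1 lower, the medians of Mgp are 240 and 247 CPM, and the highest cells of Crip1, Igfbp6, Hspb1 and S100a6 hold Msln.

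Hspd1, the mitochondrial chaperone HSP60, was lower in the sum and in the median over cells. Its level per cell ran from 0 over a median of 488 to 2048 CPM with the heterozygous mother and from 0 over 228 to 489 CPM with the null mother. The ranges overlap, but no cell of the null mother lay above 489 CPM, just over the median of the heterozygous mother. The summed levels were 654 and 267 CPM, a ratio of 0.409 (0.328 to 0.506), which stayed at 0.402 without the cells with Msln. The ratio was 0.746 in fibroblasts and 0.813 in epithelium, so Hspd1 was lower with the null mother in all 3 kinds of cell.

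Mgp, matrix Gla protein, an inhibitor of calcification, stood at 1534 and 650 CPM, which gives a ratio of 0.424 (0.368 to 0.486), while its medians per cell were 240 and 247 CPM. Mgp was very high in a few cells, up to 8638 CPM with the heterozygous mother and 4331 CPM with the null mother, and with cells above 39418 UMIs (the 95th percentile) left out the ratio was 0.782. The remaining lower genes had 8 to 19 UMIs with the null mother. They were Unc119, Pfn2 (a profilin), Tmem97 (a sterol-responsive membrane protein), Ccne1 (cyclin E1), Cops8, Clns1a, Hist1h1c, Ccdc86, Suz12 (a Polycomb subunit) and Glrx5 (an iron-sulfur cluster protein), with ratios from 0.257 to 0.412. Their ratios in fibroblasts ran from 0.701 to 1.08. Not all of these calls held: Ccne1 was at 0.975 in thinned cells and 0.905 without cells that had UMIs of the other cell lists, and Tmem97 at 1.95 and 0.669. Without the cells with Msln the ratios of Hist1h1c and Suz12 were 0.521 and 0.551, above the limit of 0.5.

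Gene groups were described by the median log2 ratio of their measured genes, beside -0.03 for all measured genes. Mesothelial identity genes outside the rule had the highest median among groups with 3 or more measured genes, 0.45 over 16 of 23 genes, of which 14 were higher and 4 were past 2-fold with the null mother (Krt19, Rarres2, Muc16 and Nkain4). Over all 3216 measured genes 1496 were higher and 1.99% past 2-fold higher. Of the 4 only Rarres2 was past 2-fold under every alternative run: Krt19 was at 1.72 without the cells with Msln, 1.96 without the cell highest in Igfbp6 and 1.29 in thinned cells, Nkain4 at 1.49, 1.79 and 2.53, and Muc16 at 2.25, 1.81 and 0.406. Krt19 had medians per cell of 352 and 687 CPM and a ratio of 2.26 (1.95 to 2.61), against 1.47 in epithelium. Rarres2, the precursor of chemerin, stood at 148 and 329 CPM, which gives a ratio of 2.22 (1.76 to 2.81), against 1.55 in fibroblasts. Krt18 was equal in both libraries, at 193 and 191 CPM. The median of the group was between 0.06 and 0.50 under the alternatives run, and 0.24 without the cells with Msln. Dmkn and Anxa8 had no UMI with the heterozygous mother, and all 18 UMIs of Anxa8 with the null mother came from 1 cell.

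The 9 measured genes of the unfolded protein response were all lower with the null mother, with a median of -0.34 and none past 2-fold. Over all 3216 measured genes 1720 were lower. Hsp90b1, the chaperone GRP94, stood at 1457 and 1044 CPM, which gives a ratio of 0.716 (0.640 to 0.801), and Hspa5, the chaperone BiP, at 1274 and 1013 CPM, a ratio of 0.795 (0.708 to 0.891). Manf and Pdia4 had ratios of 0.684 (0.535 to 0.866) and 0.626 (0.410 to 0.924). In fibroblasts the 4 ratios were 0.940, 0.872, 0.798 and 0.868, and in epithelium 0.842, 0.787, 0.800 and 0.780. The group median lay between -0.57 and -0.08 under the alternatives run, and at -0.44 without the cells with Msln.

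Cholesterol synthesis and uptake had 5 of 23 genes measured, with a median of -0.24. Of these 4 were lower, beside 1720 of all 3216 measured genes, and 1 was past 2-fold lower (1.46% of all measured genes). Hmgcs1, a synthase of the early pathway, had 176 and 26 UMIs, a ratio of 0.570 (0.362 to 0.864), and its ratio in fibroblasts was 0.795. Cyp51, a demethylase of the same pathway, did not follow, at 81.7 and 84.4 CPM. Of 11 listed targets of LXR, the receptor for oxysterols, 3 were measured, and Apoe among them stood at 880 and 1216 CPM, which gives a ratio of 1.38 (1.23 to 1.54). Abcg1 and the receptor Nr1h3 had no UMI in mesothelium, and Abca1 had 6 and 1. The 8 sterol hydroxylase and bile acid sensing genes had none measured, and the bile acid receptors Nr1h4 and Gpbar1 had 1 and 0 UMIs over both libraries.

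Matrix groups leaned upward. Of 9 basement membrane genes 8 were higher, none of them past 2-fold, and their median was 0.33. Nid1 (nidogen) at 43.8 and 81.6 CPM had a ratio of 1.86 (1.15 to 2.95). Of 15 fibrillar collagen and elastic fibre genes 10 were higher (median 0.17) and 4 past 2-fold, which were Eln, Col6a1, Col6a2 and Mfap4, beside 1496 of 3216 and 1.99% of all measured genes. Without the cells with Msln Col6a1 was at 1.93, and in cells with Xist and no Y-linked UMI Col6a2 was at 1.79 and Mfap4 at 0.674. One cell held 68.5% of the Mfap4 UMIs of the null mother. In fibroblasts Col6a1 and Col6a2 had ratios of 1.41 and 1.51, and Mfap4 1.85. Both medians were above 0 under every alternative run that gave a value. Among immediate early and heat shock genes, 5 of 7 were higher and the median was 0.43. Fos was at 301 and 408 CPM and Jund at 748 and 1106 CPM.

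Signalling groups showed little difference. The medians of the hedgehog (4 genes), TGF beta and BMP (6 genes) and Wnt (8 genes) groups were 0.04, 0.00 and -0.10, with none past 2-fold, and the sign of each changed under at least 1 alternative. Aldh1a2 had a ratio of 1.30 (1.16 to 1.45) and Rdh10 of 0.682 (0.508 to 0.901), on either side of a retinoid median of -0.15, whose sign also changed under some alternatives. Rspo1 had a ratio of 1.53 (1.32 to 1.78) and Rspo3, another enhancer of Wnt signalling, of 0.538 (0.303 to 0.897), but 3.25 in thinned cells. Fgf9, with a ratio of 1.25 (0.975 to 1.60), was not separated by counting error. Among the imprinted genes the noncoding RNAs H19 and Meg3 had ratios of 1.59 (1.46 to 1.72) and 1.59 (1.49 to 1.71), and Mest, a hydrolase-like protein, one of 0.544 (0.410 to 0.711), but 1.12 in thinned cells. H19 was at 0.981 without cells that had UMIs of the other cell lists. In fibroblasts the ratios of H19, Meg3 and Mest were 1.13, 0.887 and 0.768. Igfbp7 was past 2-fold beside Igfbp6, at 93.4 and 191 CPM (2.05, and 1.80 without the cells with Msln), and Igfbp2 was at 774 and 560 CPM. Of 10 S phase replication genes 8 were lower, beside 1720 of all 3216 measured genes, with a median of -0.32. That median was 0.00 without the cells with Msln and above 0 under another alternative.

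**Figure D5:**
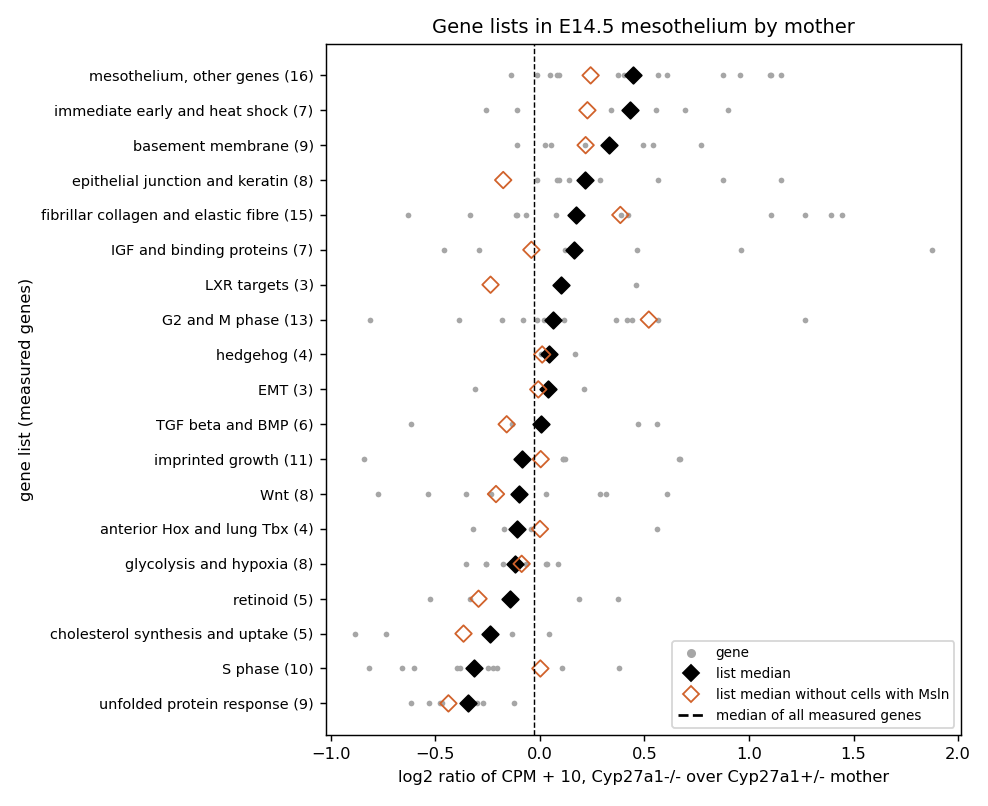
Log2 ratio, null over heterozygous mother, of CPM plus 10 for the measured genes (grey) of each gene group with 3 or more of them, with the group median (black) and the median without cells with a Msln UMI (open); the dashed line is the median of all measured genes, -0.03. Identity genes stand highest at 0.45 and the unfolded protein response lowest at -0.34. The medians of the G2 and M phase and of the keratin groups move most when the Msln cells are left out. That of the G2 and M phase moved further under alternatives not drawn. It was -2.10 in cells with Xist and no Y-linked UMI, and 1.31 without cells that had UMIs of other cell lists.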

How the data were processed

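Droplet single-cell RNA-seq of 4 libraries was read from the matrix of counts as deposited, 31053 genes by 43351 cells; per the submitters' processing notes Cell Ranger 3.0.0, Seurat 4.3.0 and mm10 were used, with order and settings not given in the sources used here. The values are whole UMI counts per gene and cell with no normalization, and the lowest total in a cell was 500 UMIs. The list of genes was deposited under the name of the cell list and the reverse, as their contents show, and library names came from the deposited cell table, all of whose libraries matched a label. No authors' cell types were used. No doublet caller was run, and 94 barcodes were shared by the E14.5 libraries.

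Members followed the rule given in the results; the members and the 35 gene lists were chosen with earlier results of these data known. UMIs were summed over cells per library and scaled to CPM with numpy 2.4.6, scipy 1.17.1 and pandas 2.3.3 under Python 3.11.15. Ratios are null over heterozygous mother on CPM, with a floor of 3 counts for 0, and log2 ratios used a pseudocount of 10 CPM. CPM intervals are exact Poisson, ratio intervals come from the exact binomial split of UMIs, and share intervals are Clopper-Pearson. Called means past 2-fold. Ratio code was tested on simulated data. Named genes are the 5 rule genes, the 20 most enriched, the 12 highest and 12 lowest ratios (haemoglobin, Xist, Y-linked, mitochondrial, ribosomal, predicted and Rik genes left out), up to 4 far members and the defining members of each list, and Cyp27a1; genes named for the split by Msln, and the muscle genes Tnni1 and Fabp3, were chosen after their values were seen. Coordinates are from GENCODE M21 (GRCm38). Alternatives were other scalings, minimums, cell weights, depth thinning, rule sums, and removals of cells. Some results are not reported here.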

Additional observations from a re-analysis of the deposited data

Results flagged for a closer look

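Cells that met the same rule were also present in the libraries labelled as E18.5 lung, which no comparison above uses. The other cells of these libraries had Nkx2-1 at 0 and 0.00916 CPM, Alb at 3238 and 8753 CPM and S100a8, a neutrophil gene, at 19550 and 18284 CPM, values that go against the lung label. There were 29 of 9943 cells (0.292%, 0.195 to 0.419) in the library of the heterozygous mother and 22 of 11958 cells (0.184%, 0.115 to 0.278) in that of the null mother. Msln stood there at 651 and 842 CPM, against 90.4 and 124 CPM in the E14.5 cells. Aldh1a2 was at 117 and 88.9 CPM, against 875 and 1134 CPM at E14.5, and no UMI of Tbx18 was counted. The same cells held Hhip at 193 and 216 CPM, Foxf1 at 45.4 and 51.3 CPM, and Hoxa5 at 60.5 and 23.9 CPM. They also held Tnnt2 at 507 and 595 CPM and Myl7 at 299 and 780 CPM. Genes lower and genes higher in Msln cells at E14.5 were thus both counted there. Crip1 was at 2414 and 4222 CPM, against 135 and 794 CPM at E14.5, and Igfbp6 at 689 and 931 CPM, against 190 and 723 CPM. The median depth of the E18.5 cells was 6428 and 12480.5 UMIs, below that of the E14.5 cells, and S100a8 was counted in them at 11510 and 513 CPM. Age, tissue, depth and RNA from other cells cannot be told apart between these libraries and the E14.5 ones, so the values are set side by side and no difference was tested.

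For 3 genes named among the highest and lowest ratios, mesothelium and fibroblasts moved in opposite directions, with both counting intervals away from 1. Igfbp6 had a ratio of 3.81 in mesothelium and 0.409 in fibroblasts, where it was counted at 1.15 and 0.471 CPM, close to nothing. Klf2 had a ratio of 3.61 in mesothelium and 0.747 in fibroblasts, but its median per mesothelial cell was 0 in both libraries, with UMIs in 24 and 8 cells. Mgp had a ratio of 0.424 in mesothelium and 1.64 in fibroblasts, but its medians per mesothelial cell were 240 and 247 CPM. The intervals do not cover differences between cells. The difference between the cell types was not tested, since there was 1 library per mother.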

How the results depend on the processing

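No paired analysis was possible because each group has 1 library. The share of mesothelial cells kept its direction under all 6 alternatives, with ratios from 0.224 to 0.355. The counts of genes past 2-fold, 64 higher and 47 lower, differed between alternatives, for a cause that was not tested: 101 and 75 with means over cells, 256 and 223 with a minimum mean of 20 CPM, 8 and 3 with 200 CPM, 487 and 383 with cells thinned to 2000 UMIs, and 300 and 271 without cells that had 3 or more UMIs of other cell lists (18 and 4 cells). Leaving out the deepest cells (above 39418 UMIs, the 95th percentile) gave 51 and 30. Among alternatives chosen after seeing the data they were 99 and 115 in cells with Xist and no Y-linked UMI (39 and 12 cells), and 227 and 240 at a fold of 1.5. Of 63 named genes whose ratios were recomputed, 25 had a ratio that crossed 1 under at least 1 alternative, 13 of them in thinned cells, among them Wt1 (0.557) and Upk1b (0.839). Among genes past 2-fold this held for Muc16 (0.406) and Tmem97 (1.95) in thinned cells, Lgals7 (0.785) and Mfap4 (0.674) in cells with Xist and no Y-linked UMI, and Tm4sf1 (0.842) without cells with a Msln UMI; the cause was not tested. The other scalings gave 66 and 43, or 67 and 50. The 20 cells of the null mother limit every ratio between mothers.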
